A study of Mus musculus with 2 samples.

Results

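Neurexins and neuroligins are adhesion proteins that pair across the synapse, and 4 of their genes, Nrxn2, Nrxn3, Nlgn1 and Nlgn2, were searched for R-loops in mouse neural stem and progenitor cells (NSPCs). The genes were taken by their symbols from the GENCODE M1 annotation of the mm9 genome, which holds 37273 genes, 22367 of them protein-coding. An R-loop peak was assigned to a gene when both shared at least 1 bp. This gave 12 of the 22132 peaks in the list, with 7 in Nrxn2, 2 in Nrxn3, 2 in Nlgn1 and 1 in Nlgn2. Other neurexin and neuroligin genes were not analysed here.

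The cells were primary NSPCs cultured from the frontal brain of C57BL/6 mice at postnatal day 7 and, per the paper's methods, treated with aphidicolin, a DNA polymerase inhibitor that slows replication forks (the sample labels name no treatment). Genomic DNA was cut with 5 restriction enzymes, and the DNA bound by S9.6, an antibody against RNA:DNA hybrids, was sequenced (DRIP-seq). The series has 2 samples, the precipitated DNA and its input. A single list of peaks, with chromosome, start and end and no signal or count, was analysed, so depth is unknown, no value has a replicate error, no test was made, and every comparison below is a description of this list.

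An R-loop is a hybrid of RNA with its DNA template beside a displaced DNA strand, and stretches with much G in the strand that carries the RNA sequence favour it. Neurexins are presynaptic receptors, made as long α forms and short β forms from separate promoters and spliced in many ways. Neuroligins are their postsynaptic ligands, with Nlgn1 known from excitatory and Nlgn2 from inhibitory synapses. NSPCs are dividing progenitors that have not yet formed synapses.

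The peaks fell into contrasting settings. In Nrxn2 and Nlgn2, shorter and GC-rich genes of 125 kb and 14.7 kb, peaks held the annotated gene start, and 5 of the 8 peaks reached an exon of the reference transcript. In Nrxn3 and Nlgn1, long and AT-rich genes of 1612 kb and 702 kb, all 4 peaks were under 1 kb wide. Such narrow peaks made up 41.3% of all peaks and 52.0% of those in protein-coding genes of 300 kb or longer. All 4 lay in introns, at least 25.4 kb from any annotated transcript start of their gene. The Nlgn1 annotation holds no noncoding first exon, so a peak at a start farther upstream would be missed here. Tandem repeats made up 39.6% and 0% of the bases in the Nrxn3 peaks and 22.5% and 59.1% in the Nlgn1 peaks. The median was 14.7% in narrow peaks of such long genes, and 4 peaks are too few to read a difference from. All 4 genes contained a peak, beside 39.6% of all protein-coding genes, and 2 of the 4 gene starts lay inside a peak, beside 14.9% of all protein-coding gene starts. Longer genes held a peak more often, with 63.3% of those of 100 to 150 kb and 68.2% of those of 300 kb or longer. The 4 genes were also chosen with earlier results of these data known.

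The following stretches show what lay under the peaks. Each is the 150 bases of its peak, outside annotated untranslated and noncoding exons, in which the numbers of G and C differed the most, so that this difference is part of the choice. They are written 5′ to 3′ on the strand of the gene's RNA, from mm9, and capitals mark perfect tandem runs of at least 12 bases with repeat units of 1 to 6 bases. The first set shows repeats under an intronic peak of each long gene, with the peak of Nrxn3 that held none for comparison:
Nrxn3 peak 1, chr12:90405614-90405763, plus strand: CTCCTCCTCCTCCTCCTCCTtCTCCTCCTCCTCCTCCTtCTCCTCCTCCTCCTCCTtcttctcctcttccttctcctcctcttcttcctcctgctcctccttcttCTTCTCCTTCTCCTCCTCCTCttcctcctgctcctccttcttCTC
Nrxn3 peak 2, chr12:90720290-90720439, plus strand: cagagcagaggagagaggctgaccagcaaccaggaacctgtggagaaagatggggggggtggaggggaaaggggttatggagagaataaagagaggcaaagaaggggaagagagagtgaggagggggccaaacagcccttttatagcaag
Nlgn1 peak 2, chr3:25746012-25746161, minus strand: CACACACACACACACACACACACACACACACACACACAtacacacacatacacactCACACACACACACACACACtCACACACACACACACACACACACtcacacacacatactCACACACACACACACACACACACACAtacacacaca

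The Nrxn3 peak 1 stretch held 83 C, 65 T, 2 G and 0 A, with the triplet CCT 32 times, and 52% of it was in tandem runs. The Nlgn1 peak 2 stretch held 71 C, 71 A, 8 T and 0 G, with the pair CA 67 times and 70.7% in tandem runs. The Nrxn3 peak 2 stretch was of the other kind, with 64 G, 53 A, 18 C and 15 T and 0% in tandem runs.

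The second set shows the peaks of the GC-rich genes, of which the first holds the first coding exon of Nrxn2, the second is the widest of the 12 and the last covers the Nlgn2 start (the stretches themselves are intronic):
Nrxn2 peak 2, chr19:6428930-6429079, plus strand: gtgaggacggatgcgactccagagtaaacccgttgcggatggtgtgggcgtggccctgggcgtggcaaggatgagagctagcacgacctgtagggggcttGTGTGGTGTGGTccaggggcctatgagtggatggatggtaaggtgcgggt
Nrxn2 peak 4, chr19:6445182-6445331, plus strand: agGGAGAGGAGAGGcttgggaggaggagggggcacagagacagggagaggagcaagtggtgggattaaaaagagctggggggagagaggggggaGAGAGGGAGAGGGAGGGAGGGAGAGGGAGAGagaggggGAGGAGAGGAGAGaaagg
Nlgn2 peak 1, chr11:69650072-69650221, minus strand: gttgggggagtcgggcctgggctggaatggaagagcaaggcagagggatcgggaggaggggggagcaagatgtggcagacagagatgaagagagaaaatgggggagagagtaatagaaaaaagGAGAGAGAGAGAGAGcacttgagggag

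These stretches were G-rich on the RNA strand, but their whole peaks were nearly balanced. Over the whole peak, (G − C)/(G + C) on the RNA strand was 0.0445 in Nrxn2 peak 2 and 0.0752 in Nrxn2 peak 4. In Nlgn2 peak 1 it was -0.0820, so C slightly exceeded G there. The Nrxn2 peak 2 stretch held 67 G and 26 C with 8 CpG, the Nrxn2 peak 4 stretch 88 G and 6 C with 37.3% in tandem runs, and the Nlgn2 stretch 71 G and 12 C with 10% in tandem runs. Tandem runs made up only 4.34% of the whole Nrxn2 peak 4 and 5.05% of the whole Nlgn2 peak 1.

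Nrxn2 (ENSMUSG00000033768) occupies chr19:6418731-6544169 (plus strand). Its 7 peaks amounted to 55.8 per Mb and covered 14.3% of the gene. Of the 991 protein-coding genes of 100 to 150 kb, 63.3% contained a peak, the median was 1 peak, and 62 genes, or 6.26%, had 7 or more. More peaks than in Nrxn2 were found in 41 of these 991 genes, and fewer in 929. The gene's GC content of 53.7% was above that of 99.5% of genes in this length class, whose median was 42.8%.

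The first Nrxn2 peak, chr19:6416550-6418806, was 2.26 kb wide and lay almost wholly upstream, with 76 bp inside the gene in the noncoding first exon of the long transcript Nrxn2-001. It also overlapped the annotated gene Gm14965. The first 1 kb of Nrxn2 had a GC skew, (G − C)/(G + C) on the RNA strand, of 0.406, higher than in 99.9% of protein-coding genes. Only the 76 bp shared with the first peak lay under a peak in that 1 kb, so the strongly G-skewed sequence itself was largely outside it.

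The second peak, chr19:6427303-6429080, was 1.78 kb wide, 8.57 kb from the gene start, and held the whole of exon 2, 974 bases of which 730 are coding, where the α coding sequence begins. Its GC content was 65.7%, compared to 51.7% in flanks of the same width, and above that of 98.5% of all peaks. It held 167 CpG at an observed-to-expected ratio of 0.872, the highest ratio of the 12 peaks, while the ratio was 0.312 in the peak at the gene start. Among the transcripts that start inside this peak are Nrxn2-012, Nrxn2-013 and Nrxn2-014, 9.92, 9.21 and 10.0 kb from the gene start.

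The next peaks continued through the 5′ part of the gene. The third, chr19:6430780-6432536, lay in intron 2 and had less GC than its flanks, 47.8% against 48.7%. The fourth, chr19:6441787-6452147, was 10.4 kb wide, wider than 98.3% of all peaks, and held the small exons 3, 4 and 5. It had 53.1% GC against 49.4% in its flanks and held 12 restriction sites, so its width spans many fragments of the digest. The fifth, chr19:6453141-6456148, was 3.01 kb wide and held exon 6, with 56.3% GC against 52.1%. Both remaining peaks, chr19:6475867-6476353 in intron 9 and chr19:6483250-6483750 in intron 11, were 0.487 and 0.501 kb wide.

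The midpoint of the last peak lay at 51.6% of the length of Nrxn2. Exons 7 to 23 of Nrxn2-001 overlapped 0 peaks. The short coding transcripts Nrxn2-004 and Nrxn2-003, which start at 6497828 and 6497835, 79.1 kb from the gene start, began 14.1 kb from the nearest peak and overlapped 0 peaks over their whole length. Of the 16 annotated transcripts, 11 start inside a peak, and the others start 54.4 to 98.5 kb from the gene start. The next peak downstream of the gene lay 394 kb away, while the nearest upstream was 39.0 kb away in Sf1, a splicing factor gene.

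**Figure D1:**
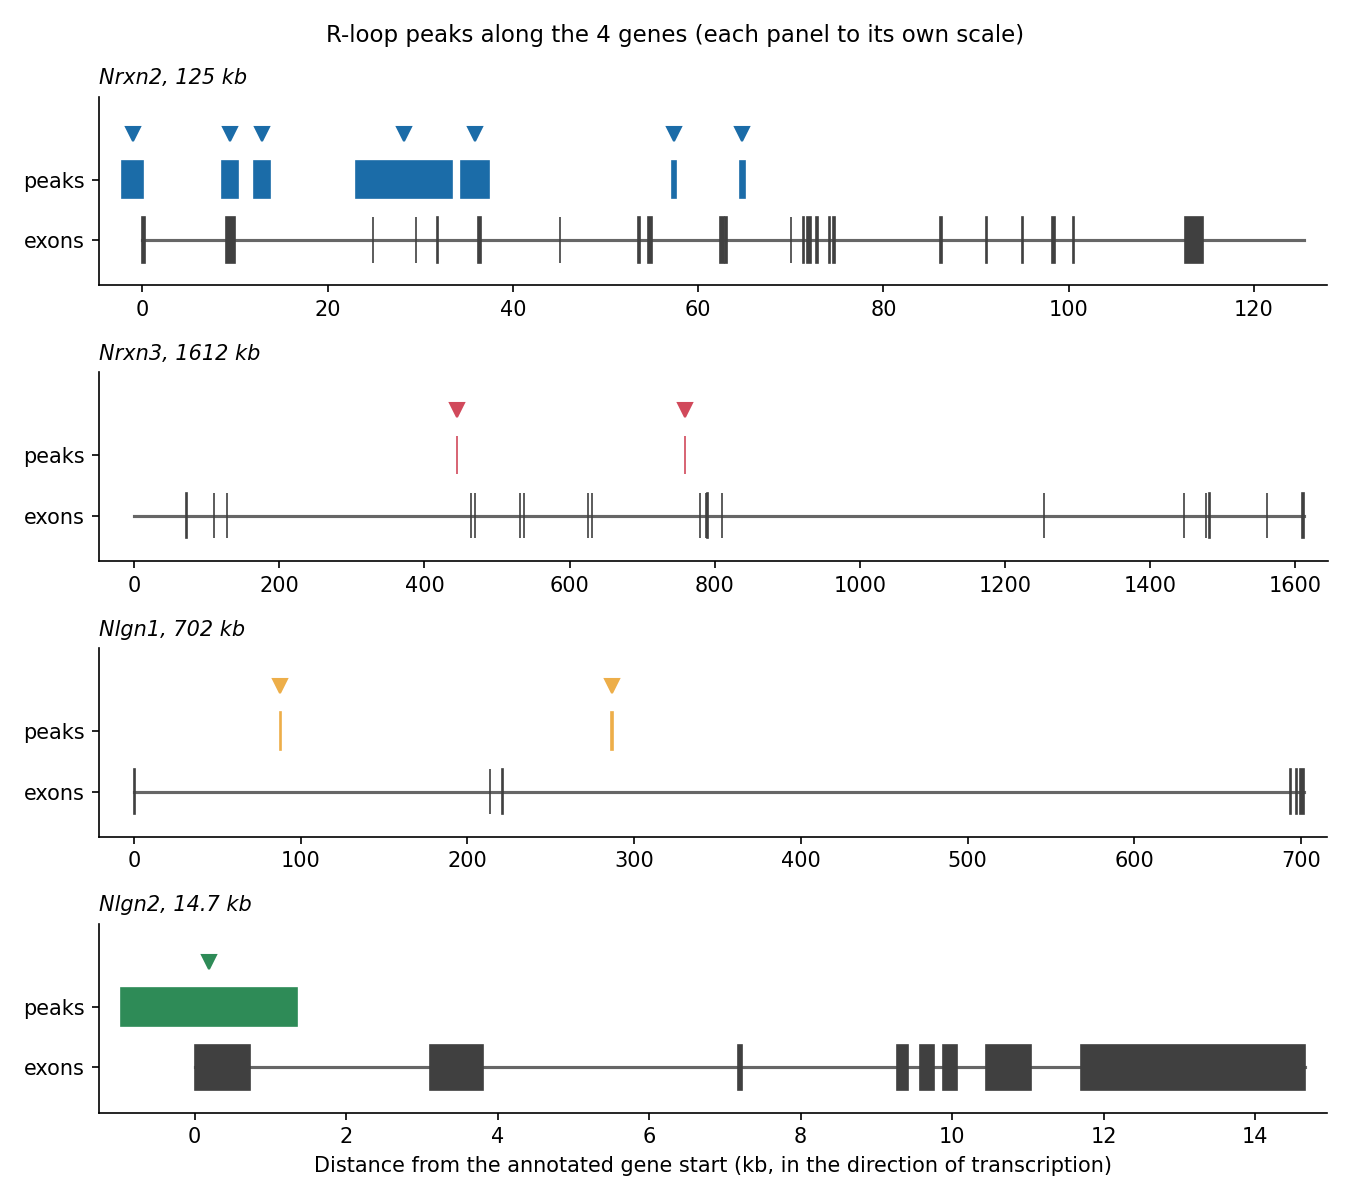
R-loop peaks (coloured bars, each with a triangle) and exons of 1 reference transcript (dark bars) along Nrxn2, Nrxn3, Nlgn1 and Nlgn2; the horizontal axis gives the distance from the annotated gene start in kb in the direction of transcription, on a separate scale for each gene. The 7 Nrxn2 peaks lie in its 5′ part, the Nlgn2 peak spans the gene start, and the Nrxn3 and Nlgn1 peaks stand alone in long introns.

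Nlgn2 (ENSMUSG00000051790), the neuroligin of inhibitory synapses, occupies chr11:69636624-69651286 (minus strand). Its peak, chr11:69649941-69652257, was 2.32 kb wide, held the gene start and the whole noncoding exon 1 of Nlgn2-001, 737 bp, and covered 9.18% of the gene. Of the 3788 protein-coding genes of 10 to 20 kb, 42.4% contained a peak, and 661 had more peaks than Nlgn2. The peak reached upstream into 1810027O10Rik, a gene that runs in the opposite direction, so that with unstranded positions alone the peak could belong to the RNA of either gene. The next transcript start, that of Nlgn2-002, was 1.59 kb from the peak. With 62.6% GC against 52.4% in its flanks, 124 CpG and an observed-to-expected CpG ratio of 0.55, it was richer in GC than 97.0% of all peaks.

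The strand asymmetry at the Nlgn2 start differed from that of Nrxn2. Its first 1 kb had a skew of -0.180, and only 2.42% of protein-coding genes had a lower one. The whole peak had a skew of -0.0820. Nlgn2 lay in a stretch with other wide peaks. One of 9.29 kb over Plscr3 and Tnk1 lay 9.42 kb upstream, and one of 10.985 kb over Chrnb1, Fgf11 and Tmem102 lay 16.5 kb downstream.

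Nrxn3 (ENSMUSG00000066392), occupying chr12:89961320-91573375 (plus strand), ranked 10 in length among all protein-coding genes. At the average of the whole list, 8.65 peaks per Mb of genome sequence, a stretch of its length would hold 13.9 peaks, but it held 2, or 1.24 per Mb. Its first peak, chr12:90405614-90406121, lay in intron 3 of Nrxn3-001, which is 337 kb long, at 27.6% of the gene's length. Its second, chr12:90720143-90720471, lay in intron 9, 149 kb long, at 47.1%. None of its 14 annotated transcripts, with 12 different starts, began in a peak. The distance from a start to the nearest peak ranged from 25.4 to 330 kb, and the short transcripts that start at 91050923 were the farthest. The peaks were separated from each other by 314 kb, and the stretch after the second peak ran 1046 kb to the next peak of the list, with 853 kb of it inside Nrxn3.

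Both Nrxn3 peaks were richer in GC than their surroundings, with 54.1% against 42.4% in the flanks of the first and 52.0% against 43.8% in the second. They differed in strand. The first peak had a skew of -0.891, with 94.9% pyrimidines on the RNA strand, 0 CpG and 39.6% of its bases in tandem runs, a share higher than in 95.6% of all peaks. The second had a skew of 0.298 and 0% in tandem runs.

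Nlgn1 (ENSMUSG00000063887), the neuroligin of excitatory synapses, occupies chr3:25330733-26032656 (minus strand). It held 2 peaks, or 2.85 per Mb, where the list average gives 6.07 for its length. The first from the gene start, chr3:25944485-25945245, lay in intron 1 (213 kb long), 87.4 kb from the start. The second, chr3:25745566-25746244, lay in intron 3 (473 kb long), 286 kb from the start. Its 2 annotated transcripts share 1 start, and all 6 exons of the reference transcript contain coding sequence, so a noncoding first exon farther upstream is not part of this annotation. The nearest peak upstream of the annotated start and outside the gene was 198 kb away, in A830092H15Rik.

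Both Nlgn1 peaks were C-rich on the RNA strand. The first had 43.2% GC against 39.6% in its flanks, a skew of -0.350 and 22.5% in tandem runs. The second had 46.1% against 35.1%, a skew of -0.821, and 59.1% of its bases in tandem runs, a share higher than in 99.1% of all peaks. The 3′ side of Nlgn1 was empty. From the second peak, 3623 kb passed without a peak, of which 415 kb were inside Nlgn1, and only 20 of the 22111 stretches between neighbouring peaks of the list were longer. Their median was 23.6 kb.

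GC content was above that of the flanks in 11 of the 12 peaks with flanks of the peak's own width, and in 9 of the 12 with flanks of 5 kb. With the latter, both narrow Nrxn2 peaks of introns 9 and 11 turned to -1.04 and -0.546 percentage points. Flanks were measured for these 12 peaks only, so whether this differs from the rest of the list is not known. With flanks of the peak's own width, the median difference was 3.95 percentage points, from -0.996 in the third Nrxn2 peak to 13.9 in the second. In the 4 peaks of Nrxn3 and Nlgn1 the difference was 3.68 to 11.7 points. GC content was 43.2 to 54.1% in the peaks of Nrxn3 and Nlgn1 and 47.8 to 65.7% in those of Nrxn2 and Nlgn2, so the ranges overlapped, and the median of the list was 48.7%. Skew was positive in 6 of the 12 peaks.

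**Figure D2:**
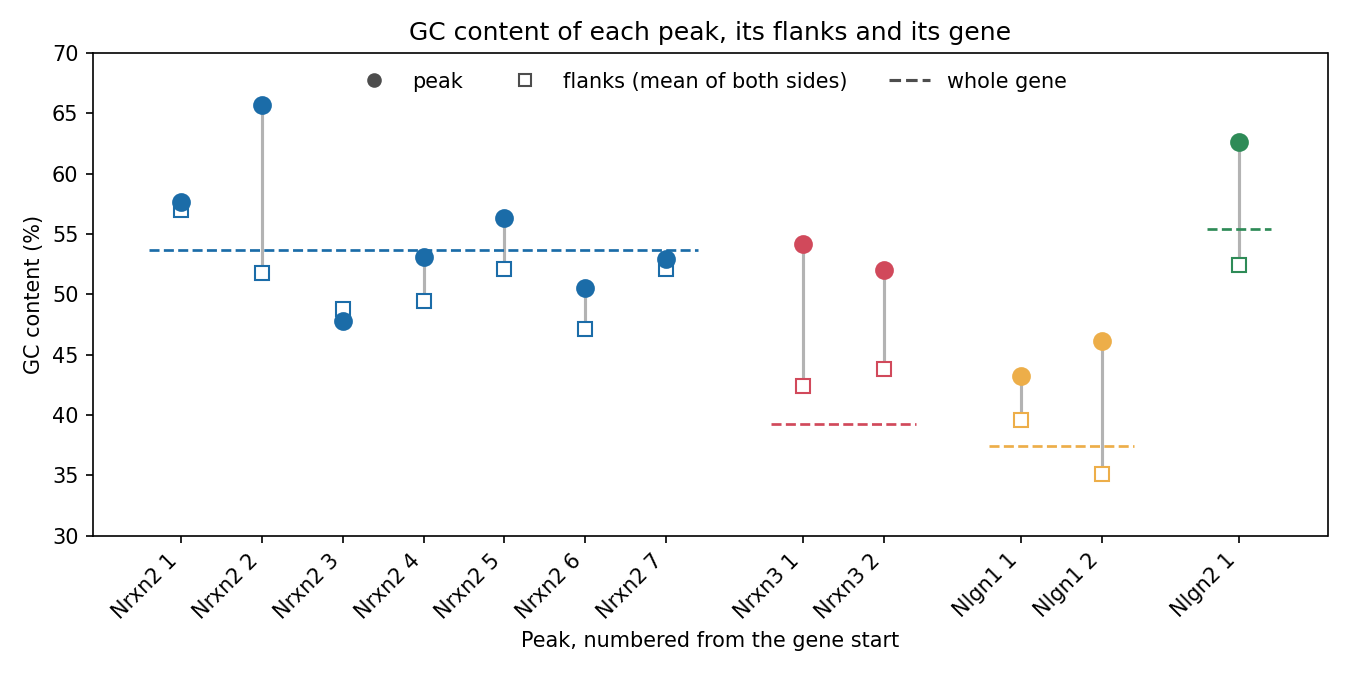
GC content (vertical axis, %) of each of the 12 peaks (filled circles), of flanks as wide as the peak on both sides (open squares) and of the whole gene (dashed lines), with peaks numbered from the gene start. With these flanks, every circle but that of the third Nrxn2 peak lies above its square.

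Tandem repeats made up 22.5 to 59.1% of the bases in 3 of the 4 peaks of Nrxn3 and Nlgn1. They made up 0% in the second Nrxn3 peak. The median was 14.7% in peaks under 1 kb in protein-coding genes of 300 kb or longer. At least 25% of the bases lay in perfect tandem runs in 2 of the 12 peaks, 1 in Nrxn3 and 1 in Nlgn1, beside 10.6% of all peaks. Narrow peaks in general were richer in repeats, with 22.4% of peaks under 1 kb past this share, 28.5% of such peaks in protein-coding genes of 300 kb or longer, and 2.21% of peaks of 1 kb or wider. The 2 of 4 peaks in Nrxn3 and Nlgn1 are thus to be read beside 28.5%, and 4 peaks are too few to read a difference from. In Nrxn2 the share in tandem runs reached 10.5%, in the peak of intron 2, and in Nlgn2 it was 5.05%. An absolute skew of at least 0.8 occurred in the same Nrxn3 and Nlgn1 peaks. It was found in 2.49% of all peaks and in 7.66% of peaks under 1 kb in protein-coding genes of 300 kb or longer. S9.6 signal on repeat-rich DNA, and how reads were placed there, were not tested, because the list holds no reads.

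**Figure D3:**
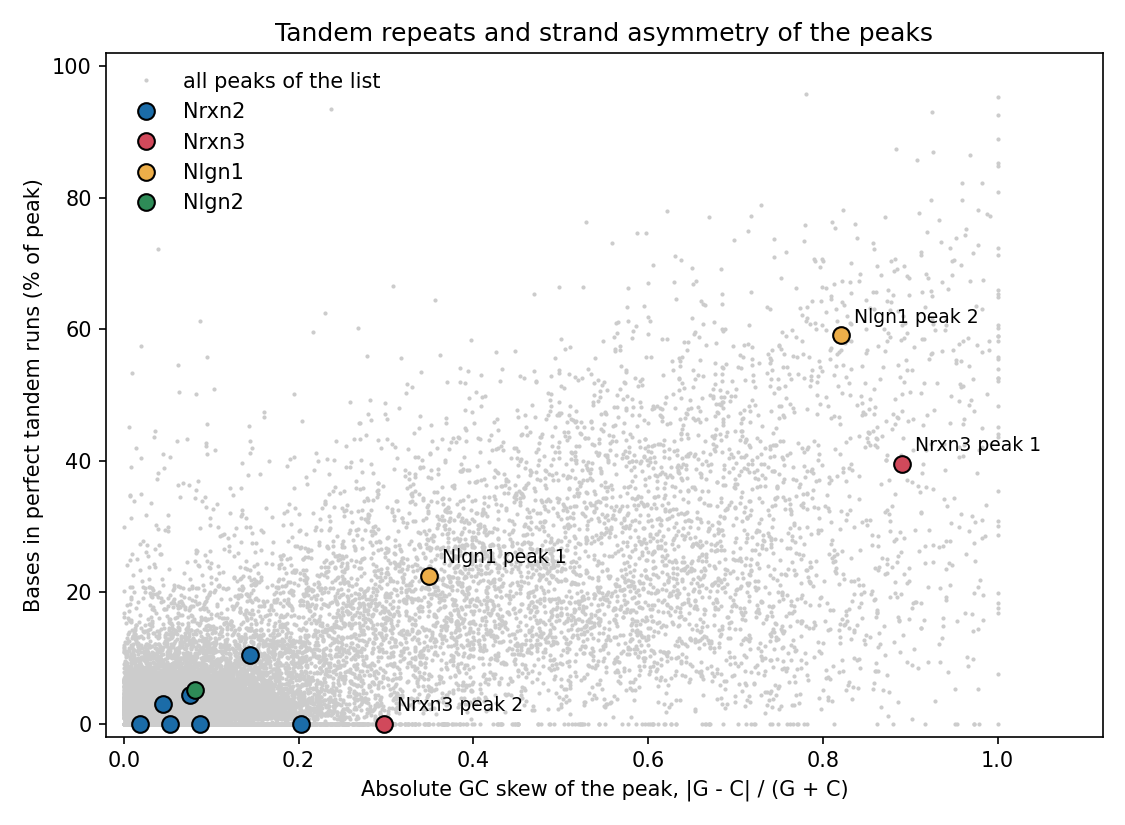
Share of bases in perfect tandem runs (vertical axis, % of the peak) against absolute GC skew (horizontal axis) for all 22132 peaks (grey) and the 12 peaks of Nrxn2, Nrxn3, Nlgn1 and Nlgn2 (coloured). Nrxn3 peak 1 and Nlgn1 peak 2 lie at high skew and high repeat share, at 39.6% and 59.1%, and the Nrxn2 and Nlgn2 peaks lie at the lower left.

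Most stretches of the long genes had no peak, with or without such repeats. Cut into windows of 500 bp, Nrxn3 held 37 windows of 3224 with at least 25% in tandem runs. A peak overlapped 1 of them, or 2.70%, beside 0.0941% of its other windows. Nlgn1 held 23 of 1403, of which 1, or 4.35%, had a peak, beside 0.362% of its other windows. Each of these repeat-rich shares rests on 1 window. Over all protein-coding genes of 300 kb or longer, 5.64% of the 6966 repeat-rich windows overlapped a peak, compared to 0.975% of the other windows. Nrxn2 held 4 repeat-rich windows, none with a peak, and Nlgn2 held 0.

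Nrxn3 and Nlgn1 were compared with other long genes by number and by density of peaks. Of the 528 protein-coding genes of 300 kb or longer, 68.2% contained a peak, with a median of 1, and 69.5% had 2 or fewer, as Nrxn3 and Nlgn1 did. Per length, these genes had a median of 2.60 peaks per Mb and 4.88 when pooled, so that Nrxn3, with 1.24, lay below both values and Nlgn1, with 2.85, between them. The start lay inside a peak in 9.85% of them. With these genes ranked by GC content and split into 3 groups of 176, 46.0% contained a peak in the lowest group, 73.9% in the middle and 84.7% in the highest. Nrxn3, with 39.3% GC, and Nlgn1, with 37.4%, both belonged to the lowest group, which had a median of 0 peaks, with Nrxn3 close to its upper limit. In that group, 137 of the 176 genes had fewer peaks than their 2, and 21 had more. In the middle group, 74.4% of genes had 2 peaks or fewer. Across the 528 genes, GC content and peaks per Mb had a Pearson's r of 0.464 and a Spearman's rho of 0.520, given without a p because the genes share 1 list and differ also in length. Transcription of these genes was not analysed here.

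**Figure D4:**
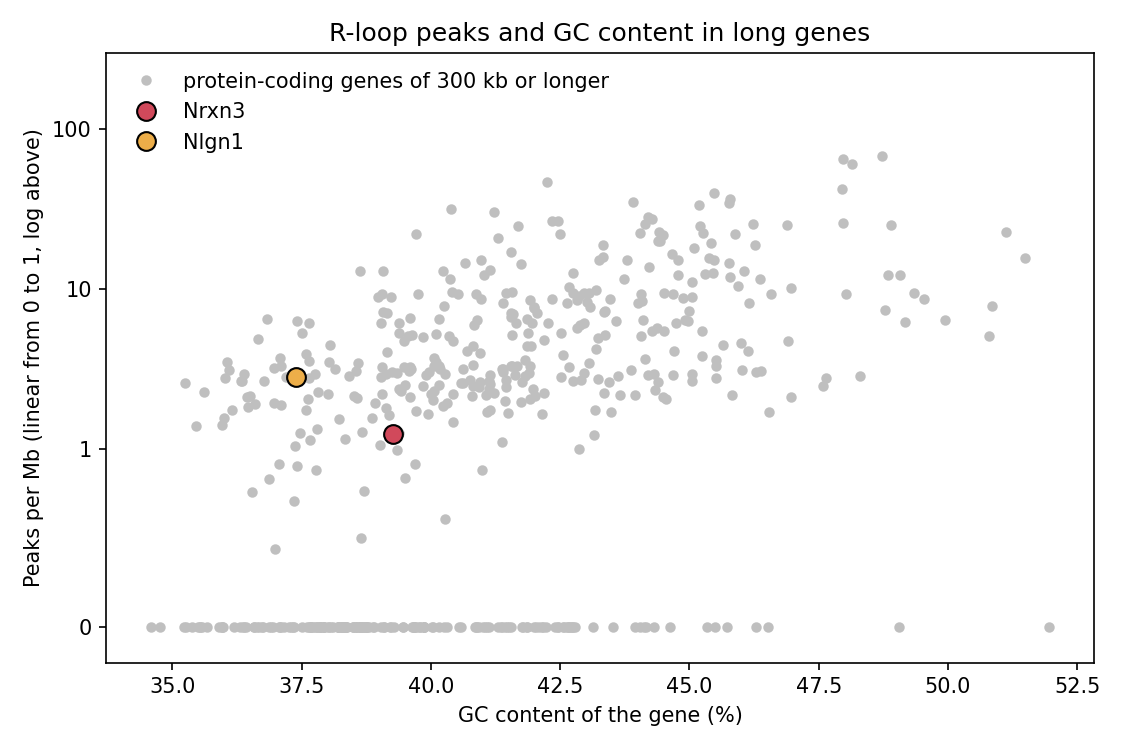
Peaks per Mb (vertical axis, linear from 0 to 1 and logarithmic above) against GC content of the gene (horizontal axis, %) for the 528 protein-coding genes of 300 kb or longer, with Nrxn3 and Nlgn1 coloured. Their GC content, 39.3% in Nrxn3 and 37.4% in Nlgn1, is above that of 33.0% and 12.7% of these genes. They have 1.24 and 2.85 peaks per Mb.

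The density of restriction sites differed between the genes. Sites of EcoRI (GAATTC), HindIII (AAGCTT), BsrGI (TGTACA), SspI (AATATT) and XbaI (TCTAGA), which read the same on both strands, occurred 2.12 times per kb in Nrxn3 and 2.31 times in Nlgn1, but 0.981 times in Nrxn2 and 0.955 times in Nlgn2. Of the 24 edges of the 12 peaks, 6, or 25%, lay within 100 bp of a site, beside 28.3% of all edges in the list. The part of fragment size in peak number and width was not tested.

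The 40 genes of known partners of neurexins and neuroligins were searched in the same way. They were listed with earlier results of these data known. Of these, 29, or 72.5%, contained a peak, beside the 39.6% of all protein-coding genes given above. Their median length was 151 kb, and 14 were 300 kb or longer. Among those 14, 11 contained a peak, beside 68.2% of all genes of that length. Gene starts lay inside a peak in 11 of the 40, beside 14.9% of all protein-coding genes.

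On the neurexin side, 16 of 27 partner genes, or 59.3%, contained a peak. Their median length was 153 kb, so this share lay near the 63.3% of genes of 100 to 150 kb and under the 68.2% of genes of 300 kb or longer. Of the 16 extracellular ligands and receptors, 9 did, with 4 peaks in Lphn1 and 3 in Lphn3, which encode latrophilins, the receptors of a spider toxin. Of the 8 cytoplasmic partners, 4 did, led by Apba2 with 11 peaks over 18.9% of its 252 kb. Apba2 encodes an adaptor of the presynaptic terminal. All 3 Khdrbs genes, whose RNA-binding products act in neurexin splicing, contained a peak, with 3 in Khdrbs2.

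On the neuroligin side, 13 of 13 partner genes contained a peak, beside 39.6% of all protein-coding genes. Their median length was 148 kb, and several were longer than 300 kb. A peak was present in 63.3% of all protein-coding genes of 100 to 150 kb and in 68.2% of those of 300 kb or longer. Because the list was chosen with earlier results of these data known, 13 of 13 is a description and not evidence of an excess. Mdga1, which encodes a cell surface protein that keeps neuroligins from binding neurexins, had 13 peaks over 8.87% of its 142 kb, while its start lay outside them. Among the 9 scaffold genes of excitatory synapses, Dlgap1 and Magi2 had 6 peaks each and Shank2 had 4. Dlg4, Dlg2 and Shank3 followed with 3 each, as did Gphn, the gene of the gephyrin scaffold of inhibitory synapses. The density in the named genes of 300 kb or longer on this side was 1.54 peaks per Mb in Dlg2, 4.06 in Magi2, 6.55 in Gphn, 7.04 in Dlgap1 and 9.47 in Shank2. The median over all protein-coding genes of that length was 2.60. The named genes were picked for their number of peaks, so their densities lean high by choice and are not evidence of an excess over that median.

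**Figure D5:**
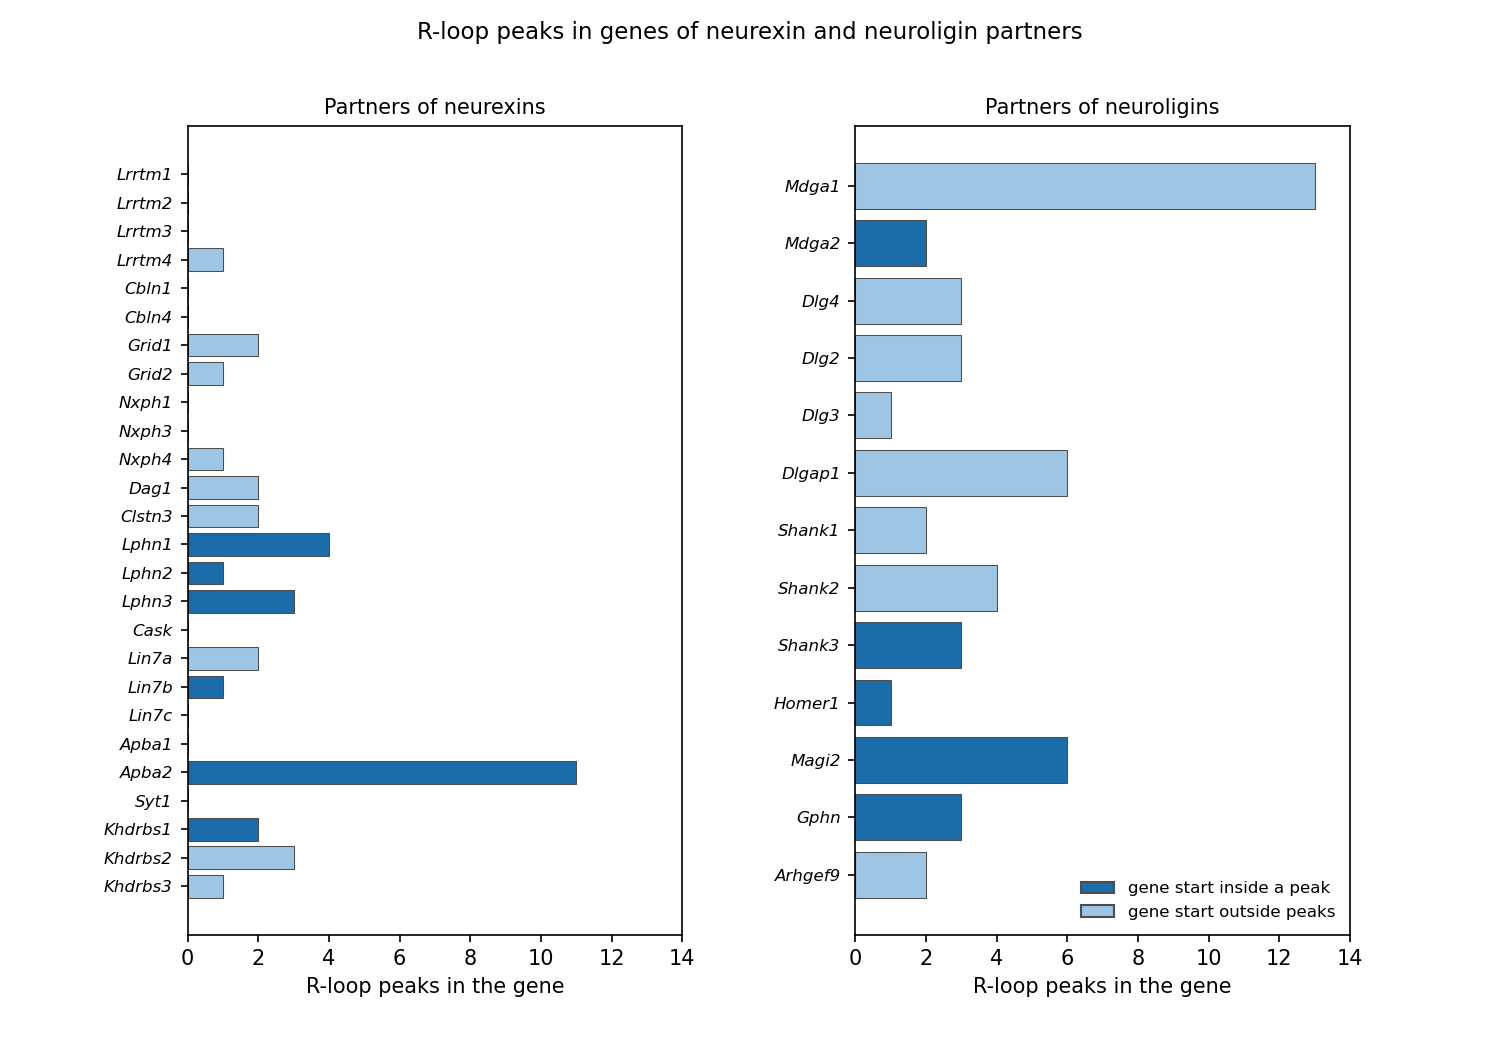
Number of R-loop peaks (horizontal axis) in 26 of the 27 neurexin partner genes (left) and the 13 neuroligin partner genes (right), with dark bars where the annotated gene start lies inside a peak and light bars where it does not. Mdga1, with 13, and Apba2, with 11, have the longest bars, and all 13 genes on the right have at least 1 peak.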

How the data were processed

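DRIP-seq was carried out on NSPCs, and the authors trimmed the reads (Trim Galore 0.6.6 per the submitters' processing notes), aligned them to mm9 and removed duplicates. Peaks came from a Hidden Markov Model, and the authors deposited 1 list of 22132 peaks, whose unit is the position in base pairs. Per the paper, the libraries came from 3 biological replicates with 3 DRIP reactions each. How these were merged into 1 list is not given in the sources used here. The input library was not used here.

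Members and lists were chosen with earlier results of these data known. Overlaps, GC content, GC skew, CpG, tandem runs and restriction sites were computed from the mm9 sequence and GENCODE M1 with numpy 2.4.6 under Python 3.11.15. Correlations used scipy 1.17.1, and matplotlib 3.10.9 drew the figures. Overlap counts, tandem runs and GC content were tested on simulated data. Where a symbol was annotated more than once (Cbln1, Mdga2, Magi2), the longest gene was used. Percentiles give the share of peaks or genes with a lower value. Named genes are the 4 members, genes sharing a member peak or holding the nearest peak outside a member, and the partner genes with the most peaks (up to 5 per side). Where 4 genes tied at 3 peaks for the last place, all were named, which goes beyond the rule. Of the partner genes, 1 is counted in the totals but not reported here by itself, and 1 sequence is not reported here. As alternatives, peaks were merged within 1 kb, limited to a width of 1 kb or more, or counted by midpoint, gene limits were extended by 2 kb and flanks set to 5 kb. The tandem run measure and its alternatives, the length classes, the 3 GC groups and the 500 bp windows were chosen after seeing the data.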

Additional observations from a re-analysis of the deposited data

How the results depend on the processing

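Of the 28 values recomputed, 23 stayed within 1.5 times the reported value, 5 moved beyond it and 0 reversed. Keeping only peaks of at least 1 kb left 0 peaks in Nrxn3 and 0 in Nlgn1, because all 4 of their peaks are narrower, while Nrxn2 kept 5 and Nlgn2 kept 1. The repeat share depended on its definition, and these alternatives were chosen after seeing the data. With runs of at least 20 bases, 1 of the 12 peaks (Nlgn1 peak 2) and 787 of all peaks had at least 25% in tandem runs, instead of 2 and 2338, since the longer run admits fewer repeats. With units of 1 to 3 bases, the 12 peaks still gave 2 and the list 1008. With flanks of 5 kb, the median GC difference was 5.92 points instead of 3.95, but 9 instead of 11 of the 12 peaks had more GC than their flanks. The number of partner genes with a peak ranged from 21 (peaks of at least 1 kb) to 29, and that of all protein-coding genes from 7104 to 9636. No paired analysis was possible because 1 peak list without replicate columns was analysed. Leaving out a replicate was not possible for the same reason. Without counts or signal, a gene without a peak cannot be told apart from one with signal under the caller's threshold.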
